A study of Mus musculus with 4 samples.

Results

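Germline and meiosis genes were examined in mouse embryonic stem cells (ESCs) after knockdown of Cnot1, as a fixed list of 41 gene symbols among the 50559 genes of the count table. The list held 7 genes of germ cell fate, 10 genes of meiotic entry, cohesin and the chromosome axis, 5 genes of meiotic recombination, 12 genes of the piRNA pathway and 7 other spermatogenic genes. All 41 were listed, and 39 had enough counts for a test.

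The study asked how the m6A reader YTHDF2 and CNOT1, the scaffold of the CCR4-NOT deadenylase complex that shortens poly(A) tails, restrain the 2-cell-like state of ESCs. Poly(A)+ RNA was sequenced 48 h after transfection with a non-targeting siRNA (siNT, 2 libraries) or with siRNA against Cnot1 (siCnot1, 2 libraries). Both groups were ESCs of the E14 line, a single line grown on gelatin with leukemia inhibitory factor and serum replacement, with no gene edit named in the labels and transfection shared by both groups. The methods describe the ESCs of the study as carrying a tdTomato reporter under the promoter of the retrotransposon MERVL, and the study designed more than one siRNA against Cnot1 without the labels saying which was used here. The methods call replicates independent, the labels name no separate cultures, and p-values therefore measure the spread between these libraries.

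Germ cells are set apart early in the embryo, and their later genes serve meiosis, the division that pairs and recombines homologous chromosomes and reduces their number, and the piRNA pathway, in which PIWI proteins guided by small RNAs silence transposons. In ESCs and somatic cells many of these genes have CpG-rich promoters that are held down by DNA methylation and by a variant Polycomb complex containing MGA and MAX. MAX dimers bind the E-box CACGTG, and some germline genes are nonetheless transcribed in ESC cultures.

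Each library held between 32135824 and 32557440 counts on genes, so that 3 counts corresponded to 0.0921 to 0.0934 CPM, the count scaled to a common library size. This floor covers counting error only. Levels of single genes are given as normalized CPM, which is CPM on library sizes scaled by edgeR's TMM method, and levels between genes as FPKM, which also divides by exon length. Cnot1 stood at 912 and 985 normalized CPM in siNT and at 185 and 192 in siCnot1, a log2 fold change of -2.33 ± 0.0587 (SE, adjusted p = 2.37e-18, edgeR). The 8 ESC markers examined had a summed level of 5490 to 5646 normalized CPM in siNT and 4622 to 4812 in siCnot1. At an adjusted p under 0.05 (edgeR), 6 of the 8 were lower, with log2 fold changes of all 8 from -0.45 to -0.08 (median -0.20). Among all genes tested 14.7% were lower, and 24.5% of those at or above the median level.

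Promoters of 6 members are shown because they carry the range of responses described here, from the germ cell regulator Dazl and the meiotic cohesin gene Smc1b to the piRNA genes Mael and Mov10l1, all lower in siCnot1, and to Brdt and Rec8, both higher. Each line gives the 250 bases before the RefSeq start (build GRCm38.p6), 5′ to 3′ on the strand of the gene, with capitals for CACGTG and for GGCGGGA, an E2F-type motif, on either strand.
Dazl: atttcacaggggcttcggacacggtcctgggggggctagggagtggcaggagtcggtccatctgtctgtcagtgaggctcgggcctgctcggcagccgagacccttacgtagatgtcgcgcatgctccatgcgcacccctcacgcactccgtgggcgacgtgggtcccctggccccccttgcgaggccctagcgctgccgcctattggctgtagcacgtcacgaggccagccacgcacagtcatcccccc
Smc1b: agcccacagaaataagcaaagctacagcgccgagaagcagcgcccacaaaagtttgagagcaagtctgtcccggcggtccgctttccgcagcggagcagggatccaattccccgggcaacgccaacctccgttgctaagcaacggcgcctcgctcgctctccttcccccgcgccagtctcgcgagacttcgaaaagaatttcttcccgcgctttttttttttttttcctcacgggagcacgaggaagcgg
Mael: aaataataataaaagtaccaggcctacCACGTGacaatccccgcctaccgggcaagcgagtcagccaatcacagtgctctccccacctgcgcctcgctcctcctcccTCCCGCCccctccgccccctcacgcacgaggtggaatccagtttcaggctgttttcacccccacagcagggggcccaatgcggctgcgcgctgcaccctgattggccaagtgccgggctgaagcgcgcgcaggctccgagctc
Mov10l1: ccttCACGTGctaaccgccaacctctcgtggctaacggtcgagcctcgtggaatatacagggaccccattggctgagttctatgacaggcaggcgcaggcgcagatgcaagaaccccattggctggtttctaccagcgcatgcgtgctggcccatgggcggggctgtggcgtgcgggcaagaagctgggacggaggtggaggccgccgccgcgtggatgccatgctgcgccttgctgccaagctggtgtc
Brdt: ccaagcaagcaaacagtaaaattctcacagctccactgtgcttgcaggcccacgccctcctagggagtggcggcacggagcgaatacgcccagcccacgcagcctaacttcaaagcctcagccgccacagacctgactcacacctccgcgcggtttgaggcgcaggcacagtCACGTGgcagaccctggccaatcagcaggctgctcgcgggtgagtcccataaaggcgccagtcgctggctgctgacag
Rec8: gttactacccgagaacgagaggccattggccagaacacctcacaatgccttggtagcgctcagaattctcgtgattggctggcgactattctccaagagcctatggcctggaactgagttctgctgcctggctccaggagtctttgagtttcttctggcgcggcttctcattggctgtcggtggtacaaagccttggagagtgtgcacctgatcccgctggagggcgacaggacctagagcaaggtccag
The stretches lie at chr17:50293621-50293870 (minus strand) for Dazl, chr15:85131958-85132207 (minus) for Smc1b, chr1:166238745-166238994 (minus) for Mael, chr15:88982744-88982993 (plus) for Mov10l1, chr5:107330944-107331193 (plus) for Brdt and chr14:55617916-55618165 (plus) for Rec8. They held between 10 CG dinucleotides (Rec8) and 25 (Smc1b). CACGTG occurred once each in the stretches of Mael, Mov10l1 and Brdt and in none of the other three, and GGCGGGA once in that of Mael.

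RNA of many of these genes was measurable in the siNT control. In siNT, 29 of the 41 members had a mean of at least 1 FPKM, 23 of at least 5 and 13 of at least 10, while 12 were under 1. Dazl was the highest at 113 FPKM, followed by Kit at 45.6, Mael at 36.9, Hormad1 at 24.4 and Stag3 at 20.1. The remainder of the list reached down to Spo11, the enzyme that makes meiotic double-strand breaks, with counts of 0 and 1 in siNT and 0 and 0 in siCnot1. Tdrd6, a scaffold of the chromatoid body in spermatids, had counts of 2 and 0 in siNT and 2 and 5 in siCnot1. These 2 members did not pass the filter on low counts and were not tested.

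Knockdown of Cnot1 lowered 16 of the 39 tested members (41%) and raised 4 (10.3%) at an adjusted p under 0.05, while 19 did not pass (edgeR's quasi-likelihood test, Benjamini-Hochberg adjustment over 18144 genes). Among all genes tested 14.7% were lower and 15.0% were higher. The log2 fold changes of these 39 genes ran from -1.31 to 1.16 and centered on a median of -0.19, where the median over all genes tested was 0.0084. The summed level of all members was 1419 and 1488 normalized CPM in siNT and 1067 and 1007 in siCnot1. In these bulk libraries, fewer cells that express a gene and less RNA per cell cannot be told apart. Levels are also relative to the other RNA of a library. The methods describe no added RNA standard for these libraries, so a change in total poly(A)+ RNA cannot be seen.

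With the thresholds of the study, an unadjusted p of at most 0.05 and a change of at least 1 on the log2 scale, 3 members were lower (Smc1b, Tex11 and Piwil2, 7.69%) and 1 was higher (Mei4, 2.56%), beside 1.80% lower and 6.18% higher among all genes tested. The siNT and siCnot1 values did not overlap in 29 of the 39 tested members, including all 20 that passed the test. The share over all genes tested was not computed, and with 2 libraries a group unchanged genes can also separate. Separation of the groups is therefore given here as a description of the values and not as support for a change. Fewer members passed the test when any 1 library was left out, and so did fewer of all genes tested. The median log2 fold change of members ran from -0.32 to -0.15 in these fits. Scaling by library totals, which moved the median of all genes to 0.12, gave 13 lower and 4 higher members and a median of -0.09.

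**Figure D1:**
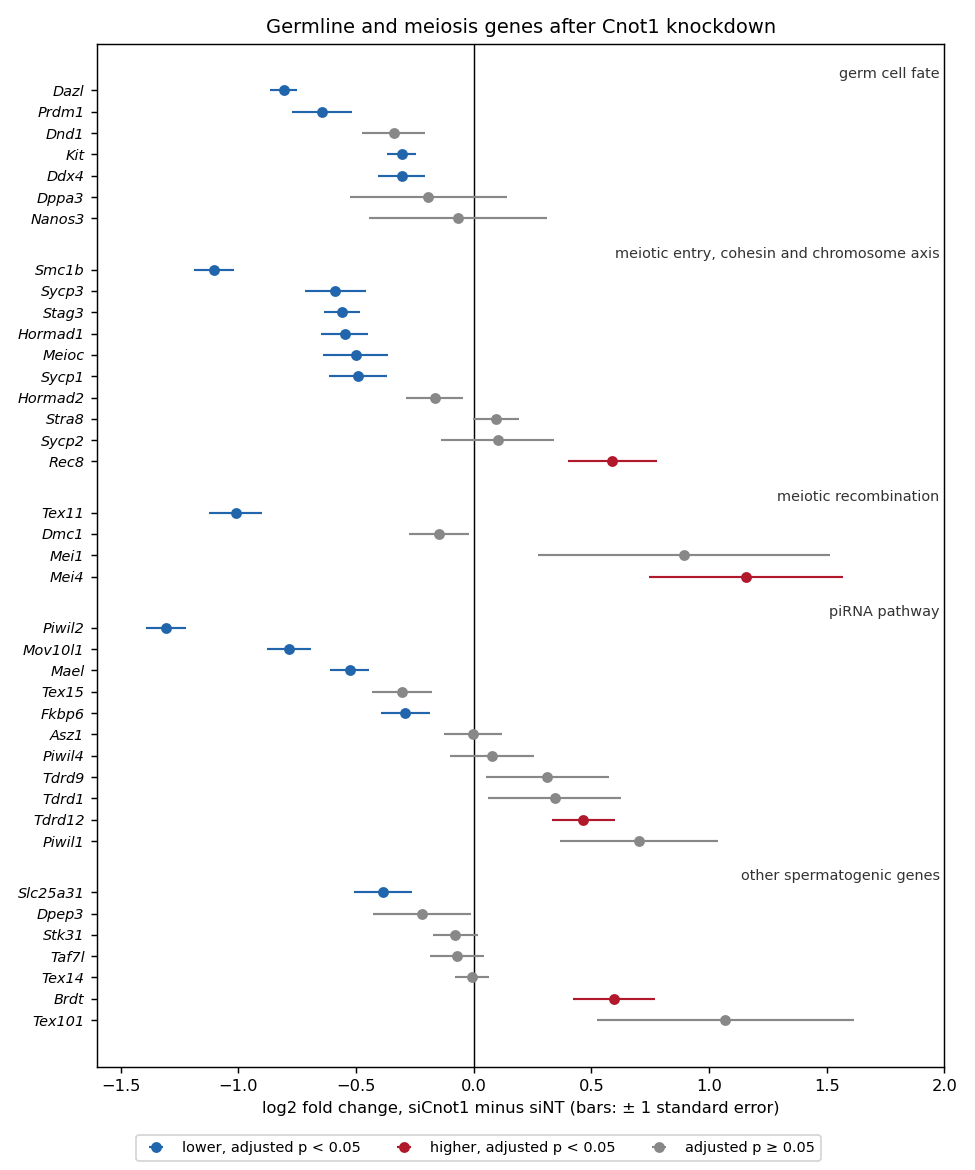
Log2 fold change (siCnot1 minus siNT) of the 39 tested members, grouped by role, with bars of 1 standard error to each side and color for the call at an adjusted p under 0.05. Blue points (16 members, lower) run from Piwil2 at -1.31 to Fkbp6 at -0.29 and red points (4 members, higher) from Tdrd12 at 0.47 to Mei4 at 1.16.

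Of the 7 genes of germ cell fate, 4 were lower and 0 were higher, with a median log2 fold change of -0.31. Among all genes tested 14.7% were lower, 24.5% of those at or above the median level, and 15.0% were higher. Dazl, an RNA-binding protein that licenses germ cells for gamete formation, stood at 362 and 386 normalized CPM in siNT and at 219 and 209 in siCnot1. Both knockdown libraries lay well under both controls, and the log2 fold change was -0.81 ± 0.0575 (SE, adjusted p = 7.7e-10, edgeR). Kit, the receptor tyrosine kinase needed for survival and migration of germ cells, had 228 and 244 in siNT and 199 and 183 in siCnot1. Its fold change was smaller, at -0.31 ± 0.0602 (SE, adjusted p = 4.25e-04, edgeR), and the groups did not overlap.

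Prdm1, a repressor that starts the primordial germ cell program, had 16.3 and 19.3 normalized CPM in siNT and 11.1 and 11.7 in siCnot1 (log2 fold change -0.64, adjusted p = 4.5e-04, edgeR). Ddx4, the germ granule RNA helicase also called VASA, had 32.8 and 36.0 in siNT and 26.2 and 29.4 in siCnot1 (-0.31, adjusted p = 0.0222, edgeR). Both knockdown libraries of each gene lay under both controls, although for Ddx4 the gap between the nearest libraries was about as wide as the gap within each group. The call of Ddx4 was lost under 5 of the 12 alternative settings and that of Prdm1 under 1. Dnd1, an RNA-binding partner of NANOS proteins, had 16.2 and 13.2 in siNT and 12.0 and 11.3 in siCnot1 and did not pass the test (-0.34, adjusted p = 0.0598, edgeR). Nanos3 and Dppa3, a survival factor of primordial germ cells and a protector of maternal DNA methylation, were near 2 normalized CPM or less on average, with overlapping groups and log2 fold changes of -0.07 and -0.19.

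Of the 10 genes of meiotic entry, cohesin and the chromosome axis, 6 were lower and 1 was higher, with a median log2 fold change of -0.50. The shares over all genes tested were 14.7% lower (24.5% at or above the median level) and 15.0% higher. Cohesin rings hold sister chromatids together, and 3 members encode meiosis-specific subunits. Smc1b had 63.8 and 64.6 normalized CPM in siNT and 30.8 and 29.0 in siCnot1. The knockdown libraries were at 46.5% of the control mean, with replicates close together in both groups (log2 fold change -1.11 ± 0.0851 SE, adjusted p = 2.18e-09, edgeR). Stag3 had 100.5 and 94.4 in siNT and 71.5 and 60.8 in siCnot1 (-0.56 ± 0.0764 SE, adjusted p = 6.42e-06, edgeR).

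Rec8, the kleisin subunit that closes the meiotic ring, went the other way from Smc1b and Stag3. It had 4.34 and 4.43 normalized CPM in siNT and 6.71 and 6.48 in siCnot1 (log2 fold change 0.59 ± 0.188 SE, adjusted p = 0.0203, edgeR). Its FPKM in siNT was 1.84, beside 15.9 for Smc1b and 20.1 for Stag3. The call of Rec8 was lost under 6 of the 12 alternative settings, among them each of the 4 fits that left out a library.

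The synaptonemal complex joins homologous chromosomes along their axes, and 3 members encode parts of it or of its axes. Sycp3, an axis protein, had 21.8 and 18.5 normalized CPM in siNT and 15.0 and 11.8 in siCnot1 (log2 fold change -0.59, adjusted p = 0.00123, edgeR). Sycp1, the transverse filament, had 19.72 and 26.04 in siNT and 16.6 and 15.9 in siCnot1 (-0.49, adjusted p = 0.00385, edgeR). The groups did not overlap in either gene, but the call of Sycp3 was lost under 3 of the 12 alternative settings and that of Sycp1 under 2. Of the exon bases listed for Sycp3, 47.8% were shared with Chpt1 on the opposite strand, a gene with 561 and 655 counts in siNT and 748 and 624 in siCnot1, and whether counting used the strand is not given in the sources used here. Sycp2, a partner of SYCP3 on the axis, was at 0.371 FPKM in siNT and had overlapping groups (0.10, adjusted p = 0.80, edgeR).

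Hormad1, a HORMA-domain protein that marks unsynapsed axes, had 43.5 and 50.3 normalized CPM in siNT and 34.5 and 29.6 in siCnot1 (log2 fold change -0.55, adjusted p = 1.72e-04, edgeR). Its paralog Hormad2 had overlapping groups and a log2 fold change of -0.17. Meioc, which keeps germ cells in meiotic prophase, had 24.2 and 35.7 in siNT and 23.5 and 18.9 in siCnot1 (-0.50, adjusted p = 0.00762, edgeR). One Meioc control was far above the other, which was near the higher knockdown library, and without siNT replicate 2 the log2 fold change was -0.20 (adjusted p = 0.457, edgeR). Stra8, the retinoic acid target that triggers meiotic entry, stood at 14.6 FPKM in siNT and had 27.0 and 25.6 normalized CPM there and 28.5 and 27.7 in siCnot1 (0.09, adjusted p = 0.524, edgeR).

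Of the 5 genes of meiotic recombination, 4 were tested, of which 1 was lower and 1 was higher. With 4 genes, these counts cannot be told apart from the 14.7% lower and 15.0% higher among all genes tested. Tex11, an X-linked gene that promotes crossovers and synapsis, had 24.1 and 25.9 normalized CPM in siNT and 12.1 and 12.7 in siCnot1. Every knockdown value was near 50% of the controls (49.6% of the mean), with a log2 fold change of -1.01 ± 0.112 (SE, adjusted p = 4.04e-07, edgeR). Mei4, a partner of SPO11 in forming double-strand breaks, had 0.610 and 1.24 in siNT and 2.77 and 1.37 in siCnot1 (1.16 ± 0.412 SE, adjusted p = 0.0367, edgeR). The lower Mei4 knockdown library lay close to the higher control, and the call was lost under 7 of the 12 alternative settings.

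Mei1, also required for break formation, had 0.193 and 0.542 normalized CPM in siNT and 0.776 and 0.597 in siCnot1 (log2 fold change 0.89 ± 0.62 SE, adjusted p = 0.305, edgeR). The gap between its 2 controls was wider than the gap between the nearest libraries of the groups. Dmc1, the meiotic recombinase, was at 7.39 FPKM in siNT with overlapping groups and a log2 fold change of -0.15.

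In the piRNA pathway 4 of the 11 tested members were lower, 1 was higher and 6 did not pass, with a median log2 fold change of -0.0033. Beside this, 14.7% of all genes tested were lower (24.5% at or above the median level) and 15.0% higher. Piwil2, a PIWI protein of fetal and adult germ cells, changed most of all members that passed. It had 66.1 and 68.3 normalized CPM in siNT and 28.2 and 26.1 in siCnot1, which is 40.4% of the control mean. The log2 fold change was -1.31 ± 0.0866 (SE, adjusted p = 2.3e-10, edgeR).

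The other PIWI genes were lower in level and did not pass the test. Piwil1, the PIWI protein of pachytene spermatocytes, had 1.45 and 1.21 normalized CPM in siNT and 2.54 and 1.79 in siCnot1 (log2 fold change 0.70 ± 0.336 SE, adjusted p = 0.123, edgeR). Piwil4, which directs transposon methylation in fetal male germ cells, had overlapping groups (0.08, adjusted p = 0.794, edgeR). In FPKM, siNT held 10.5 of Piwil2, 2.12 of Piwil4 and 0.333 of Piwil1.

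Mov10l1, the RNA helicase that binds piRNA precursors, had 42.9 and 41.8 normalized CPM in siNT and 24.8 and 24.5 in siCnot1. The replicates nearly coincided in both groups, and the log2 fold change was -0.78 ± 0.0932 (SE, adjusted p = 1.02e-06, edgeR). Mael, a germ granule protein of transposon silencing, had 57.0 and 57.1 in siNT and 38.9 and 40.3 in siCnot1 (-0.53 ± 0.0827 SE, adjusted p = 3.55e-05, edgeR). Fkbp6, a cochaperone in piRNA loading, had 24.3 and 25.1 in siNT and 20.6 and 19.8 in siCnot1 (-0.29, adjusted p = 0.0371, edgeR). The groups did not overlap in any of these genes, but the call of Fkbp6 was lost under 9 of the 12 alternative settings.

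Tudor-domain proteins gather PIWI proteins and their partners in germ granules. Tdrd12, a helicase of this family, had 9.80 and 10.1 normalized CPM in siNT and 13.1 and 14.4 in siCnot1 (log2 fold change 0.47 ± 0.134 SE, adjusted p = 0.0103, edgeR). The call of Tdrd12 was lost under 4 of the 12 alternative settings. Tdrd1 had 2.28 and 1.88 in siNT and 2.80 and 2.48 in siCnot1 (0.34, adjusted p = 0.398, edgeR), and Tdrd9 had a log2 fold change of 0.31 at a siNT level of 0.479 FPKM. Asz1, a mitochondrial protein of the same pathway, differed by -0.0033 on the log2 scale with overlapping groups. Tex15, needed for piRNA-directed silencing, had 81.0% of the control mean in siCnot1 with groups that did not overlap (-0.30, adjusted p = 0.0735, edgeR).

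The 7 other spermatogenic genes held 1 lower member, 1 higher member, 5 that did not pass and a median log2 fold change of -0.07, shares close to the 14.7% lower and 15.0% higher among all genes tested. Brdt, the testis-specific BET bromodomain protein, had 5.78 and 5.71 normalized CPM in siNT and 9.81 and 7.55 in siCnot1 (0.60 ± 0.176 SE, adjusted p = 0.0125, edgeR). Slc25a31, a germ cell ADP/ATP carrier, had 17.8 and 22.9 in siNT and 15.1 and 16.0 in siCnot1 (-0.39 ± 0.124 SE, adjusted p = 0.0204, edgeR). All knockdown values lay outside the control values in both genes, on opposite sides. Of the 12 alternative settings, the call of Slc25a31 was lost under 7 and that of Brdt under 4.

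Tex14, a component of the bridges between dividing germ cells, had 68.3 and 68.5 normalized CPM in siNT and 68.2 and 68.0 in siCnot1, a log2 fold change of -0.0074 ± 0.0711 (SE, adjusted p = 0.955, edgeR) that turned to 0.0994 with scaling by library totals. Stk31, a kinase with a Tudor domain, had 32.5 and 32.9 in siNT and 29.4 and 32.6 in siCnot1 (-0.08, adjusted p = 0.593, edgeR). Taf7l, a germ cell paralog of the transcription factor subunit TAF7, had 17.02 and 19.16 in siNT and 17.3 and 17.1 in siCnot1 (-0.07, adjusted p = 0.70, edgeR). The groups overlapped in Stk31 and Taf7l, and both log2 fold changes turned positive, to 0.03 and 0.04, with scaling by library totals. Tex101, a surface protein of germ cells, had 0.289 and 0.574 in siNT and 0.954 and 0.866 in siCnot1 (1.07 ± 0.548 SE, adjusted p = 0.152, edgeR), and the dipeptidase gene Dpep3 had overlapping groups and a log2 fold change of -0.22.

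**Figure D2:**
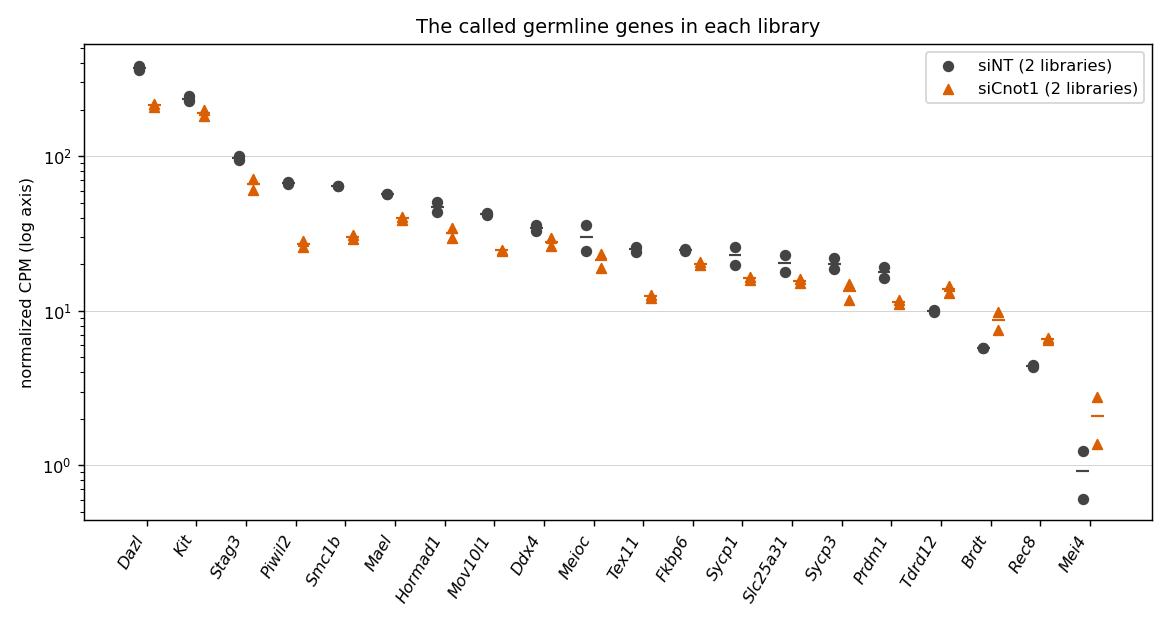
Normalized CPM (log axis) of the 20 members that passed the test, with 1 point per library and a short line at the mean of each group (circles, siNT; triangles, siCnot1). For Piwil2 and Smc1b the knockdown libraries sit far under the controls, while for Meioc the lower control (24.2) and the higher knockdown library (23.5) nearly meet.

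In normalized CPM, the 16 lower and the 4 higher members lay in separate ranges of level in siNT, from 17.8 to 374 for lower members and from 0.927 to 9.95 for higher members. In FPKM the ranges met, at 1.83 to 113 (median 11.3) for lower members, with Prdm1 at the lower end, and 0.148 to 1.84 for higher members, with Rec8 at the upper end. The same split was therefore made over all genes, at the median level of 11.9 normalized CPM over the 4 libraries, a division chosen after the values were seen. At or above it, 16 of the 25 members were lower and 0 were higher, where 24.5% of all genes were lower and 15.7% higher. Under it, 0 of the 14 members were lower and 4 were higher, where 4.87% of all genes were lower and 14.3% higher. The median log2 fold change of members was -0.39 in the upper part (all genes -0.04) and 0.40 in the lower part (all genes 0.14).

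**Figure D3:**
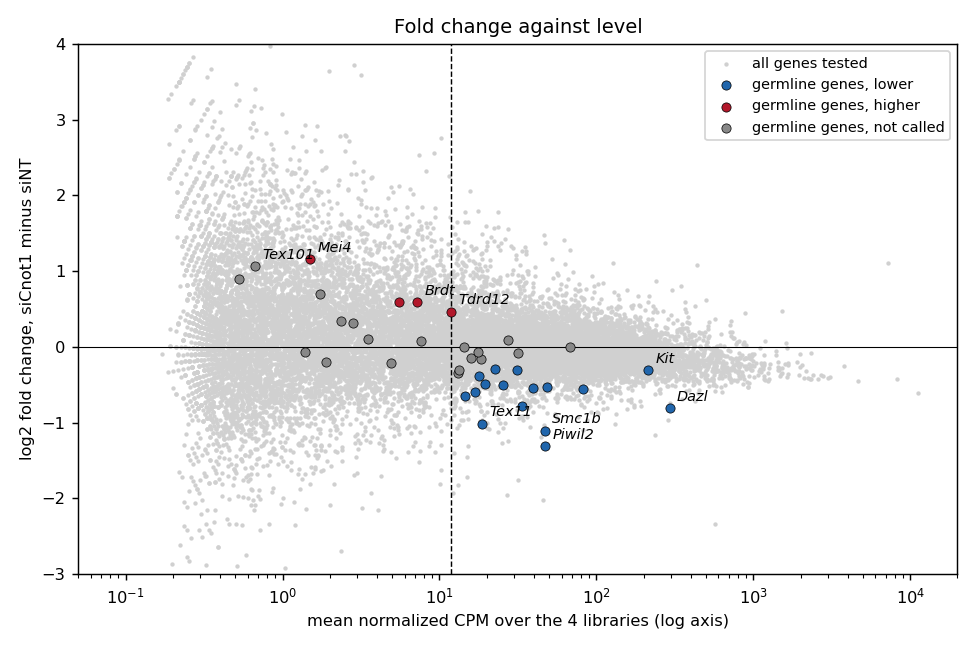
Log2 fold change (siCnot1 minus siNT) against the mean normalized CPM of the 4 libraries (log axis) for all genes tested (gray) and the 39 tested members (color by call), with a dashed line at the median level of 11.9 and 26 genes outside the axes. All 16 lower members lie to the right of the line and all 4 higher members to its left.

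Promoter windows from RefSeq (300 bases, from 250 before to 50 after the start) were found for 34 of the 41 members, in 42 windows. Their median content of CG dinucleotides was 20, beside 18 for all genes tested and 7 for all promoters. CACGTG, which reads the same on both strands, stood in a window of 15 of the 34 members (44.1%), beside 11.2% of the genes tested and 8.09% of all genes with a window. Among lower members it was found in 9 of 14 (64.3%, beside 14.7% of all lower genes), among higher members in 1 of 4 and among members that did not pass in 5 of 16. GGCGGGA, searched on both strands, was found in 6 of 34 members (17.6%). Its share was 22.3% of the genes tested and 12.7% of all genes with a window. By call, it stood in 5 of 14 lower members (35.7%, beside 26.4% of all lower genes), 0 of 4 higher members and 1 of 16 that did not pass. A window with both motifs was found for 4 of the 14 lower members (28.6%, beside 4.4% of all lower genes). GGCGGGA does not share bases with CACGTG in the sequences printed here.

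The 9 lower members with CACGTG were Mov10l1, Sycp3, Stag3, Hormad1, Mael, Sycp1, Slc25a31, Ddx4 and Fkbp6. Dazl, Smc1b, Prdm1, Kit and Meioc were lower without it, and no window was used for Piwil2 and Tex11. The median log2 fold change was -0.31 over the 15 members with CACGTG and -0.0074 over the 19 without, beside -0.03 over 1430 tested genes with it and 0.02 over 11391 tested genes with a window and without it. These motif counts are descriptions of the letters in the windows.

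**Figure D4:**
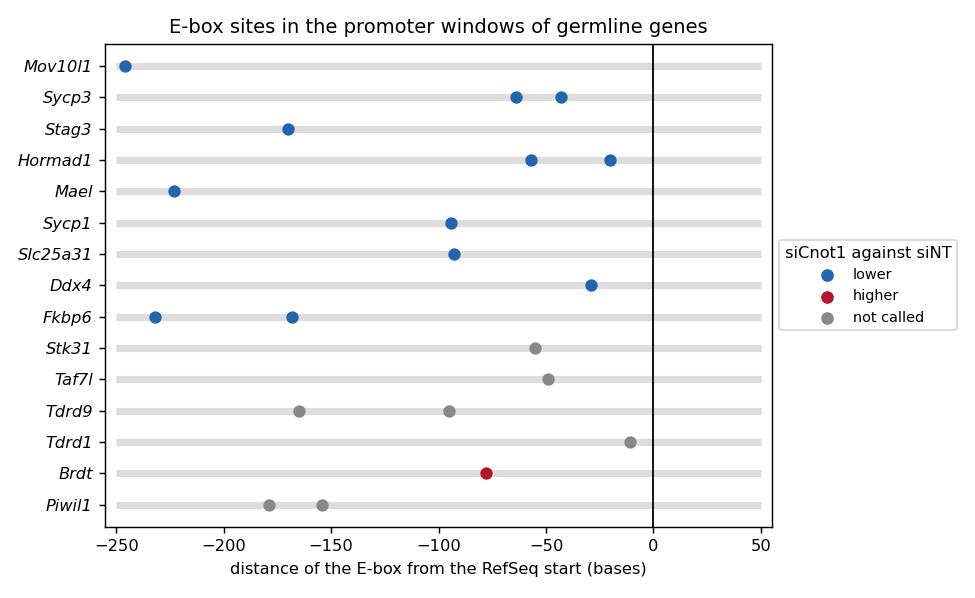
Distance in bases from the RefSeq start (black line) of each CACGTG in the promoter window (gray bar) of the 15 members that hold it, for the window with the lowest start coordinate of each gene, ordered by log2 fold change and colored by call. Sites run from -246 (Mov10l1) to -11 (Tdrd1), and lower members fill the upper 9 lines.

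Genes of the same pathways outside the 41 were read from the same fit. Of 31 tested other meiosis genes, 5 were lower and 0 were higher, with a median log2 fold change of -0.11, so that the share of lower genes was near the 14.7% of all genes tested. Terb2, which tethers meiotic telomeres to the nuclear envelope, had 9.47 and 11.3 normalized CPM in siNT and 5.31 and 4.18 in siCnot1 (-1.13, adjusted p = 3.44e-05, edgeR). Syce2, of the central element of the synaptonemal complex, and Hsf2bp, a partner of BRCA2 in meiosis, had log2 fold changes of -0.64 and -0.38 (adjusted p = 1.53e-04 and 9.25e-05, edgeR).

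Of 18 tested other piRNA and germ granule genes, 3 were lower and 0 were higher (median -0.01). The share of lower genes was again near that over all genes. Among all genes tested 15.0% were higher, beside 0 in this list and 0 among the other meiosis genes. The 3 lower genes were Morc1 at -0.29, Rnf17 at -0.28 and Gtsf1 at -0.49. Genes of spermatids were near the detection limit, with 4 of 20 tested and Ldhc, the lactate dehydrogenase of sperm, lower (-1.36, adjusted p = 0.0311, edgeR). Of 20 oocyte genes 6 were tested, of which Ooep, a subunit of the subcortical maternal complex, was lower at 113 and 111 normalized CPM in siNT and 53.3 and 51.2 in siCnot1 (-1.09, adjusted p = 1.05e-10, edgeR), and Sohlh2 was higher (0.20, adjusted p = 0.0141, edgeR). Whether these lists differed from the 41 genes was not tested.

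Repressors that act on germline promoters were measured beside their targets. Of 20 tested, 9 were lower and 1 was higher (median log2 fold change -0.16), beside 14.7% lower among all genes tested and 24.5% lower among those at or above the median level. Scaling by library totals gave 3 lower and 3 higher. Mga and Max did not pass the test, with log2 fold changes of 0.05 and -0.10 (adjusted p = 0.57 and 0.255, edgeR). Pcgf6 (-0.23) and Cbx3 (-0.25) were lower (adjusted p = 0.0126 and 0.00267, edgeR), while E2f6 (-0.19) and L3mbtl2 (0.13) did not pass. The H2A ubiquitin ligase gene Rnf2 had 216 and 236 normalized CPM in siNT and 164 and 162 in siCnot1 (-0.47, adjusted p = 2.11e-06, edgeR). The H3K9 methyltransferase gene Ehmt2 (-0.35) and the DNA methyltransferase gene Dnmt3b (-0.31) were also lower. The part of these genes in the values of the members was not tested.

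Markers of other cells and states moved with the knockdown, where 15.0% of all genes tested were higher and 14.7% lower. Of 12 tested markers of 2-cell-like cells, 9 were higher and 0 were lower, and the summed level of the list was 89.3 to 89.7 normalized CPM in siNT and 233 to 242 in siCnot1. Of 8 tested markers of primitive endoderm 3 were higher (summed 117 to 123, and 159 to 165), of 5 tested fibroblast markers 3 (20.7 to 23.7, and 31.4 to 36.6, with Col3a1, Dcn and Fap at 0 in every library), and of 4 tested markers of somatic cells of the gonads 2 (15.9 to 18.0, and 19.6 to 19.7). Pdgfra was counted as higher in both the primitive endoderm and the fibroblast list. The other higher primitive endoderm genes were Dab2 and Col4a1. Gata6 (log2 fold change -0.11), Sox7 (-0.10), Gata4 (0.79), Sox17 (0.72) and Lama1 (0.06) did not pass. Col4a1 and Lama1 made up most of the summed level of that list. Of the gonadal genes, Wt1 (counts of 21 and 4 in siNT, 52 and 45 in siCnot1) and Foxl2 (3 and 4, 28 and 12) were higher. Star (0.16), most of that list's sum, and Inha (-0.65) did not pass. Of 9 primordial germ cell markers, 7 of which are members, 6 were lower (summed 772 to 815, and 523 to 546). The part of these populations in the values of the members was not tested.

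Over 12 alternative settings of scaling, filter, test, pairing and libraries, 6 members passed in each: Dazl, Smc1b, Tex11, Mael, Piwil2 and Mov10l1, with adjusted p of at most 0.0384. The other 14 members that passed lost the call in at least 1 setting, and none of the 19 others gained one.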

How the data were processed

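RNA-seq of E14 ESCs collected 48 h after transfection with 150 nM siNT or siCnot1 was used (2 libraries each). The authors deposited raw counts per gene, neither normalized nor pooled, with exon lengths in bases (featureCounts layout). The submitters' processing notes name fastp 0.19.4, HISAT2 2.2.1, DESeq2 1.40.2 and mm10, and the counter version and strand setting are not given in the sources used here. Libraries were made with dUTP. Deposited gene starts differed from RefSeq GRCm38 in all 42 genes compared (0 shared), so these positions were not printed, and promoters carry RefSeq GRCm38.p6 coordinates.

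Counts were filtered with filterByExpr (minimum count 10), which left 18144 of 50559 genes, and tested with edgeR 4.0.16 in R 4.3.3 (TMM, quasi-likelihood test, condition only, Benjamini-Hochberg adjustment). The fit was tested on simulated data. FPKM were computed from counts, exon lengths and TMM-scaled library sizes. The study used DESeq2 with an unadjusted p. Alternatives used DESeq2 1.42.0, limma 3.58.1 (voom), other scalings and filters, a replicate block and each library left out. Replicates differed beyond sampling noise (chi-square per degree of freedom 6.57 and 5.57).

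Members, lists and rules were chosen with earlier results of these data known. All members are accounted for. Values in every library are given for those with an adjusted p under 0.05. Among the others tested they are given for the 5 highest in siNT FPKM and the 5 with the largest change. From each other list at most 3 genes were chosen by adjusted p, and further genes were named to show what a list holds.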

Additional observations from a re-analysis of the deposited data

How the results depend on the processing

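Among the 39 tested members, 390 of the fold changes over the 12 alternatives kept direction and side of the threshold, 57 kept direction and lost the call, and 19 changed sign, in 9 members that had not passed. With library totals, 13 members were lower and 4 higher, at the study thresholds 1 was lower and 2 were higher, the member median was -0.088, 1567 of all genes were lower (71.8% of calls were higher, 50.5% with TMM), 5 genes of the other germline lists were higher, and 3 repressors were higher and 3 lower. With no filter on low counts, 10 members were lower and 0 higher (0 higher at the study thresholds), 1303 of all genes were higher and 1450 lower, and 0 genes of the other germline lists and 0 repressors were higher. This alternative adjusts over 30308 genes. In it the adjusted p of Dazl was 0.0047, beside 7.7e-10 in the main fit (edgeR). At an unadjusted p under 0.05, edgeR's test called 6851 genes in it and 7127 in the main fit. The cause of the smaller number of calls was not tested. With the main filter, DESeq2 gave 2 higher members. The higher genes of the other germline lists numbered 2 with upper-quartile scaling and 3 with the minimum of 1 CPM in 2 libraries.

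Signs changed with upper-quartile scaling for Asz1 (0.016) and Tex14 (0.012), with library totals for Nanos3 (0.040), Asz1 (0.10), Tex14 (0.099), Taf7l (0.037) and Stk31 (0.028), and with 1 CPM for Asz1 (0.0071) and Tex14 (0.0029). With a library left out, the values of 7 members ran across 0: Piwil4 from -0.15 to 0.35, Nanos3 from -0.36 to 0.23, Dppa3 from -0.60 to 0.12, Asz1 from -0.063 to 0.059, Taf7l from -0.15 to 0.018, Sycp2 from -0.087 to 0.27 and Dmc1 from -0.32 to 0.0080. The cause was not tested.

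Leaving out 1 library assumes that the lone library of a group varies like the others. It gave 7 to 13 lower and 0 to 2 higher members, 2 to 3 lower and 0 to 3 higher at the study thresholds, a member median of -0.32 to -0.15, 625 to 1989 higher and 705 to 1960 lower genes in all, 0 to 2 higher and 3 to 9 lower genes of the other germline lists, and 0 to 1 higher and 2 to 9 lower repressors.

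The replicate block, with the replicate number of the labels as a term, gave 15 lower and 3 higher members and a median of -0.21, and Mei4 and Fkbp6 lost their calls. The deviations from the group means correlated at -0.0057 between libraries with the same number, so no broad shared shift was seen. Whether these libraries shared a culture or a day cannot be read from this value.

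With 2 libraries a group, members near 1 normalized CPM had few counts, and their fold changes have wide errors. Exon overlap with an opposite-strand gene touched 5 members, and Sycp1, Dnd1 and Dppa3 have named pseudogene copies, so that their counts are uncertain where reads were split.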
